A study of Mus musculus with 12 samples.

Results

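The actin cytoskeleton of mouse CD4+ T cells was followed here through 10 genes: the actins Actb, Actg1 and Acta2, the monomer-binding proteins Pfn1, Tmsb4x and Tmsb10, the turnover factors Cfl1 and Coro1a, and the nucleation promoters Was and Wipf1. They were chosen by name, with earlier results of these data known, and matched from Ensembl ID to symbol. Each was 1 of 45669 rows of the count table, and all 10 passed the filter on low counts in every comparison. Because of how they were chosen, their test results below describe these libraries and are not independent evidence for the choice.

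The cells came from lymph nodes of 12-week-old C57BL6 mice that were homozygous for the Anaef allele of Rasgrp1 (Anaef) or wild type (WT). Rasgrp1 encodes a Ras exchange factor downstream of the T cell receptor, and Anaef is known as a missense allele that every cell of the animal carries. Ribosome footprints (RPF in the labels, pieces of mRNA left intact inside a ribosome when the rest is digested) were read from 2 Anaef pools and 2 WT pools, after 1 minute of cycloheximide and micrococcal nuclease digestion. Each pool joined 2 samples, and the labels do not say which. Total RNA was sequenced from 4 Anaef and 4 WT samples of 20000 cells each, by another library chemistry. The comparisons ask whether the allele changes RNA levels, ribosome occupancy, or occupancy relative to RNA.

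Actin monomers assemble into filaments that push the leading edge of a migrating T cell and the edge of the synapse it forms with an antigen-presenting cell. Profilin feeds monomers to growing ends, beta thymosins hold monomers in reserve, cofilin severs old filaments, and WASP, kept stable by its partner WIP, switches on branching through the Arp2/3 complex. Actb and Actg1 encode the cytoplasmic beta and gamma actins of nearly all cells, whereas Acta2 encodes the alpha actin of smooth muscle.

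The coding starts of the 3 actins are shown because counts of short reads depend on how far such genes can be told apart. Each line gives the first 60 coding bases 5′ to 3′ in GRCm38, from the GENCODE M21 transcript on the minus strand, with capitals where a base differs from Actb in an alignment. Acta2 has 2 codons more than Actb, aligned as the 6 extra bases TGTGAA after its start codon, so its later bases stand 6 positions to the right of their Actb partners. Actb lies at chr5:142905627-142905686, Actg1 at chr11:120348032-120348091 and Acta2 at chr19:34252494-34252553.
Actb: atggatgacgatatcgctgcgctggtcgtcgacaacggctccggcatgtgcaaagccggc
Actg1: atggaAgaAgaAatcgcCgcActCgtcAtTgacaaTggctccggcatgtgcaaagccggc
Acta2: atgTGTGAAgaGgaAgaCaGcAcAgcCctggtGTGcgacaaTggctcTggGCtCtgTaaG
Over the whole coding sequence Actg1 was 88.7% and Acta2 82.8% identical to Actb. The longest run that Actb and Acta2 shared was 47 bases, and is in capitals in the next pair (chr5:142904079-142904168 and chr19:34243329-34243418, minus strand).
Actb: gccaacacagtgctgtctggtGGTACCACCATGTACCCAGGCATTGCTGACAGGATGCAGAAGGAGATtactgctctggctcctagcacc
Acta2: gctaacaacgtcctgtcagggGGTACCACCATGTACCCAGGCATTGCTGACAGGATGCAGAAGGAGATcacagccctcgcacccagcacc

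The beta thymosins are shown whole because they are the pair with near-equal RNA and unequal footprints. The stretches run from start to stop codon across the coding exons within chrX:167207501-167208036 (Tmsb4x) and chr6:72957618-72958012 (Tmsb10), both on the minus strand of GRCm38, with capitals at the 40 of 135 bases that differ.
Tmsb4x: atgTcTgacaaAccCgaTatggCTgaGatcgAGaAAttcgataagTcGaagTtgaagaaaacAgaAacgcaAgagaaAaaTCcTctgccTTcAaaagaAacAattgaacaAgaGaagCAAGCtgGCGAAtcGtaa
Tmsb10: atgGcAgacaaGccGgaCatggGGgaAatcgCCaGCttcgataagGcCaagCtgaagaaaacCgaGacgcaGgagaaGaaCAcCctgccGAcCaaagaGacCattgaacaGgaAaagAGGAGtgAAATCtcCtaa
The pair was 70.4% identical and shared no run longer than 10 bases, and no 30-base window of Tmsb10 matched Tmsb4x even with 2 mismatches.

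Total counts were 2868943 to 3464868 in the Anaef RPF pools, 4044330 to 7009342 in the WT RPF pools, 18580747 to 39467754 in Anaef total RNA and 15326842 to 40046317 in WT total RNA. Levels below are CPM (counts scaled for library size) on 1 scale across all 12 libraries. WT 3 had the fewest total RNA counts and the highest mitochondrial share, 27.8%, against 16.4 to 25.0% in the other 7 total RNA libraries. Rasgrp1 itself differed by a log2 of -0.50 (SE 0.16, adjusted p = 0.363) in RPF and 0.21 (SE 0.16, adjusted p = 0.945) in total RNA between Anaef and WT, and the level of a missense allele checks no label. Separate cultures or animals are not named for the samples, so p-values measure the spread between these libraries. CD4 identity genes (Cd4, Cd3e and 8 others) summed to 4149 to 6265 CPM in Anaef and 3831 to 4481 CPM in WT total RNA, with none at 0.

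The 10 genes took a far larger share of the footprints than of the RNA. They made up 5.57 and 5.996% of the counts in the Anaef RPF pools and 5.39 and 6.13% in the WT RPF pools. In total RNA they made up 0.287 to 0.491% in Anaef and 0.384 to 0.401% in WT. Actb was the most counted gene of all 4 RPF pools and Tmsb4x the third, whereas Actb ranked between 34 and 54 in the 8 total RNA libraries. The assays differed in library chemistry and in the part of the mRNA they cover, so a ratio between them is relative to the common scale and not an absolute rate. Relative to total RNA, 9 of the 10 genes were higher in RPF in each genotype by edgeR's quasi-likelihood test, and Pfn1 was the exception. Over all genes tested, 67.1% were called in Anaef cells (16.4% higher and 50.8% lower) and 74% in WT cells (19.6% higher and 54.4% lower). Among nuclear protein-coding genes, 57.9% were called in Anaef (21.5% higher and 36.4% lower) and 65.8% in WT (26.3% higher and 39.5% lower). The members' median log2 ratio was 2.02 in Anaef and 1.91 in WT, beside -1.79 and -1.62 over all genes tested, and -0.48 and -0.36 over nuclear protein-coding genes.

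**Figure D1:**
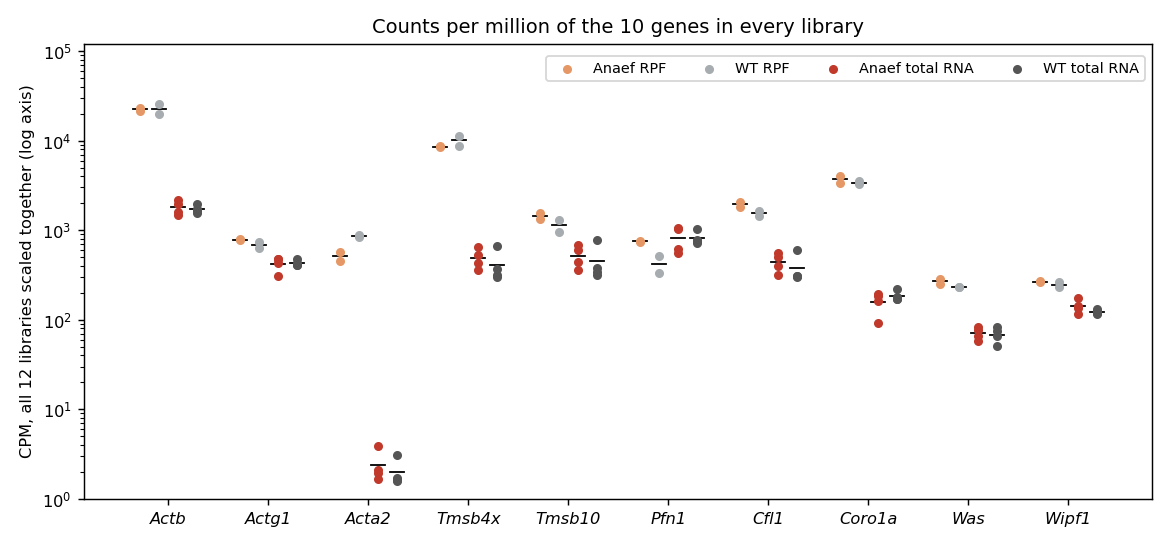
CPM of each gene in every library (log axis, points), with the group mean as a bar, for RPF and total RNA of Anaef and WT cells. Acta2 sits between 1.60 and 3.90 CPM in total RNA and between 451 and 875 CPM in RPF, and Pfn1 is the gene whose RPF points do not lie above its total RNA points.

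Actb led the actins in both assays. It had 21585 and 23426 CPM in the Anaef RPF pools and 20013 and 25364 CPM in the WT RPF pools. In total RNA it had 2152, 1495, 1587 and 1941 CPM in Anaef cells and 1742, 1559.7, 1985 and 1648 CPM in WT cells. All 4 RPF values lay above all 8 total RNA values, and the genotypes overlapped in each assay. The log2 ratio of RPF over total RNA was 3.65 (SE 0.19, adjusted p = 4.4e-06) in Anaef and 3.73 (SE 0.17, adjusted p = 3.5e-06) in WT.

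Actg1 was a minor part of the footprints next to Actb. It had 782 and 788 CPM in the Anaef RPF pools, against 639 and 734 CPM in the WT RPF pools, with no overlap. Total RNA held 431, 305, 474 and 476 CPM in Anaef cells and 429, 414, 479 and 411 CPM in WT cells, and these overlapped. Its log2 ratio of RPF over total RNA was 0.89 (SE 0.21, adjusted p = 0.0057) in Anaef and 0.68 (SE 0.14, adjusted p = 0.0026) in WT. There were 27.6 and 29.7 Actb footprints per Actg1 footprint in the Anaef pools and 31.3 and 34.6 in the WT pools, but 3.35 to 4.99 Actb counts per Actg1 count in Anaef and 3.77 to 4.14 in WT total RNA.

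The balance of the 2 cytoplasmic actins depended on how copies of Actg1 were counted. All of its 1099 coding windows of 30 bases, and 503 of the 1099 of Actb (45.8%), occurred exactly in a transcript of another annotated gene. The annotated pseudogenes that share 50-base windows with the Actg1 mRNA held 143511 counts in total RNA, 160% of the 89466 counts of Actg1 itself, and 0 counts in RPF. With the counts of such pseudogenes added to each gene, an alternative chosen after seeing the data, the log2 ratio of Actg1 became -0.48 (adjusted p = 0.092) in Anaef and -0.71 (adjusted p = 0.0032) in WT. That of Actb became 3.16 in Anaef and 3.21 in WT. Of these pseudogenes, Gm12715 (70385 total RNA counts) and Gm8399 (49103) were added whole to both genes. They share 51.1 and 35.6% of the 50-base windows of the Actg1 mRNA, but 1.60% each of those of Actb. Across the table, 153 of 8551 pseudogene rows had any RPF count and 4423 had total RNA counts. The RPF columns carry the word masked in their names; what was masked is unknown from the labels, and the part of masking in these ratios was not tested.

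**Figure D2:**
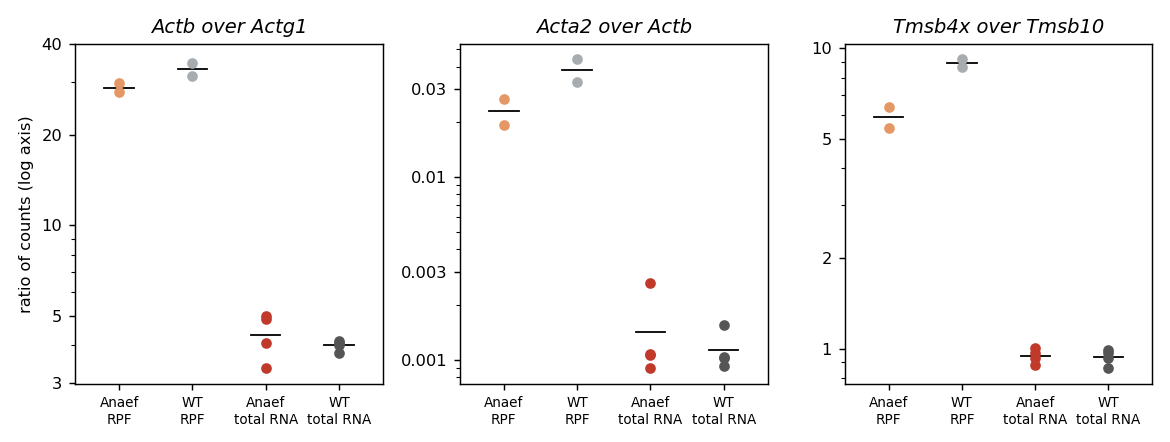
Ratio of counts within each library (log axes, points; bars are group means) for Actb over Actg1, Acta2 over Actb and Tmsb4x over Tmsb10. Each ratio is higher in the RPF pools than in the total RNA libraries, and in RPF each is lower in both Anaef pools than in both WT pools. Of the ratios not shown, Cfl1 over Pfn1 is also lower in both Anaef pools, and Was over Wipf1 overlaps. With 2 pools a genotype, the smallest p of an exact two-sided permutation test of 1 ratio is 0.333.

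Acta2 had the highest RPF over total RNA ratio of the 10 genes. Its RPF counts were 2809 and 1843 in the Anaef pools, against 8320 and 4859 in the WT pools. Those counts correspond to 573 and 451 CPM in Anaef and 875 and 839 CPM in WT. In total RNA it had between 31 and 95 counts per library, which gave 1.93, 3.90, 1.69 and 2.09 CPM in Anaef cells and 1.60, 1.62, 3.08 and 1.69 CPM in WT cells. The log2 ratio was 7.73 (SE 0.35, adjusted p = 3.8e-06) in Anaef and 8.83 (SE 0.29, adjusted p = 2.7e-06) in WT, which placed it 93rd of 12164 and 38th of 12048 protein-coding genes.

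The footprints of Acta2 were set beside those of other muscle genes. Acta1, of skeletal muscle, had 913 ± 82.5 CPM in Anaef and 701 ± 56.0 CPM in WT RPF (SD, n = 2 each), but 37.3 ± 10.5 and 39.7 ± 5.98 CPM in Anaef and WT total RNA (SD, n = 4 each). Actc1, of heart muscle, had 1188 RPF counts over both Anaef pools and 1271 over both WT pools. These gave 139 ± 103 CPM in Anaef and 79.8 ± 19.3 CPM in WT RPF (SD, n = 2 each). It had 3 and 2 counts over the Anaef and WT total RNA libraries. Actg2, of enteric smooth muscle, and Actbl2 stayed under 7 CPM in every group mean. Acta1 and Actg2, which passed the filter in each assay, were called higher in RPF than in total RNA in both genotypes, where 16.4% of all genes tested were called higher in Anaef and 19.6% in WT. Actc1 and Actbl2 did not pass the filter in total RNA and entered that comparison through RPF alone, so nothing is read from their ratios. A gene outside this set, Gm17087, is annotated as protein-coding and shared 65 (5.91%) of the 30-base coding windows of Actb. Over all libraries it had 18738 RPF counts and 3861 total RNA counts. Acta1 had 18753 and 7784, and Acta2 17831 and 432. Footprint counts of this size were thus not limited to the muscle actins.

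Of the 12 smooth muscle and stromal markers, Myh11 and Pecam1 alone passed the filter in RPF. Myh11, smooth muscle myosin, had 608 RPF counts (mean 67.9 CPM) in Anaef and 1541 (mean 101 CPM) in WT, with a log2 ratio over total RNA of 5.04 (SE 0.27) and 5.60 (SE 0.40). Of its 5890 coding windows of 30 bases, 66 (1.12%) occurred exactly in Myh9, which had 138616 RPF counts. The part of shared sequence in the Myh11 counts was not tested. Tagln, a smooth muscle actin-binding protein, had 3 RPF counts in Anaef and 0 in WT, against 463 and 378 counts in Anaef and WT total RNA. It passed the filter through total RNA alone, so nothing is read from its ratio. The 12 smooth muscle and stromal markers summed to 170 to 181 CPM in Anaef RPF, 215 to 228 CPM in WT RPF, 173 to 256 CPM in Anaef total RNA and 168 to 181 CPM in WT total RNA. The largest part of that sum was Pecam1, which T cells also express, at 107 and 120 CPM in Anaef and WT RPF. Most of the rest in RPF was Myh11, at 67.9 and 101 CPM, which differed more between the genotypes than Pecam1. Col3a1 was at 0 in all 4 groups, Des had at most 5 counts in any group, and Cnn1 at most 8.

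Sequence shared with Actb covered part of Acta2. Of its 1105 coding windows of 30 bases, 33 (2.99%) matched another gene exactly and 160 (14.5%) matched Actb with up to 2 mismatches. The same allowance covered 21.8% of the windows of Acta1 and 16.7% of those of Actc1. Acta2 counts were 2.65 and 1.92% of Actb counts in the Anaef RPF pools and 4.37 and 3.31% in the WT pools, but 0.0896 to 0.261% in Anaef and 0.0918 to 0.155% in WT total RNA. Pseudogenes that share 50-base windows with the Acta2 mRNA do so over 7 of its 1986 windows (0.35%), and they also match other actins. Adding all of their counts, 134075 in total RNA against 432 of its own, took its log2 ratio to -0.30 (adjusted p = 0.293) in Anaef and 0.41 (adjusted p = 0.029) in WT. Their counts were added whole whatever the share of windows, so nothing is read from these values. How reads that match several actins were assigned is not stated in the labels, and the part of shared sequence in the Acta2 counts was not tested.

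**Figure D3:**
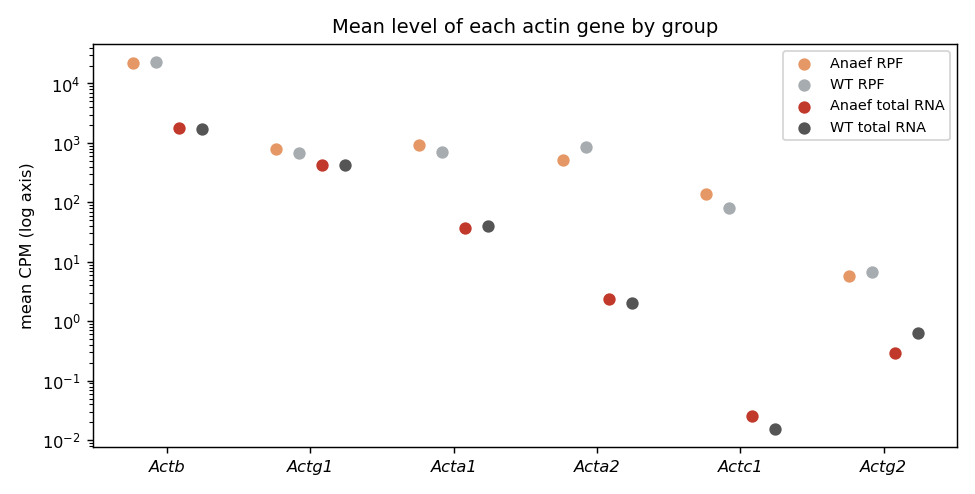
Mean CPM (log axis) of 6 actin genes in RPF and total RNA of Anaef and WT cells, as 1 point per group. Acta1, Acta2 and Actc1 stand at 79.8 to 913 CPM in RPF and at 0.0157 to 39.7 CPM in total RNA, while Actg1 changes least between the assays.

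Among the monomer-binding proteins, Tmsb4x had the highest ratio of RPF over total RNA. It had 8626 and 8393 CPM in the Anaef RPF pools, against 11393 and 8715 CPM in the WT RPF pools, which did not overlap. Its total RNA held 526, 426, 362 and 641 CPM in Anaef cells and 302, 370.3, 661 and 317 CPM in WT cells. The log2 ratio of RPF over total RNA was 4.12 (SE 0.23, adjusted p = 5.5e-06) in Anaef and 4.63 (SE 0.33, adjusted p = 1.5e-05) in WT. No window of its coding sequence or mRNA was shared with another gene.

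Its paralog Tmsb10 had 1347 and 1549.9 CPM in the Anaef RPF pools, against 1316 and 948 CPM in the WT RPF pools. Total RNA libraries held 597, 439.8, 361 and 689 CPM in Anaef cells and 313, 376, 768 and 341 CPM in WT cells. Its log2 ratio was 1.47 (SE 0.25, adjusted p = 0.0012) in Anaef and 1.36 (SE 0.36, adjusted p = 0.0096) in WT, and without the WT pool 1B the WT value was 1.10 (adjusted p = 0.093). Tmsb4x footprints outnumbered those of Tmsb10 by 6.40 and 5.42 to 1 in the Anaef pools and by 8.66 and 9.19 to 1 in the WT pools, whereas total RNA held 0.880 to 1.00 Tmsb4x counts per Tmsb10 count in Anaef and 0.860 to 0.986 in WT. All 106 coding windows of Tmsb10 occurred in other annotated genes, and its pseudogenes held 10.9% of its own total RNA counts and no RPF counts. The gene Gm9844, annotated as protein-coding, shared 33.2% of the 50-base windows of the Tmsb10 mRNA and held 1102 RPF counts and 46520 total RNA counts.

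Pfn1, which encodes profilin, was not called higher in RPF than in total RNA in either genotype. It had 747 and 764 CPM in the Anaef RPF pools, against 329 and 512 CPM in the WT RPF pools. At the RNA level there were 1067, 554, 622 and 1032 CPM in Anaef cells and 751, 720.5, 1043 and 768 CPM in WT cells. RPF pools of the genotypes did not overlap, and total RNA libraries did. Its log2 ratio of RPF over total RNA was -0.12 (SE 0.29, adjusted p = 0.734) in Anaef and -0.95 (SE 0.24, adjusted p = 0.0075) in WT. Without the WT pool 1B the WT value was -0.66 (adjusted p = 0.076).

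**Figure D4:**
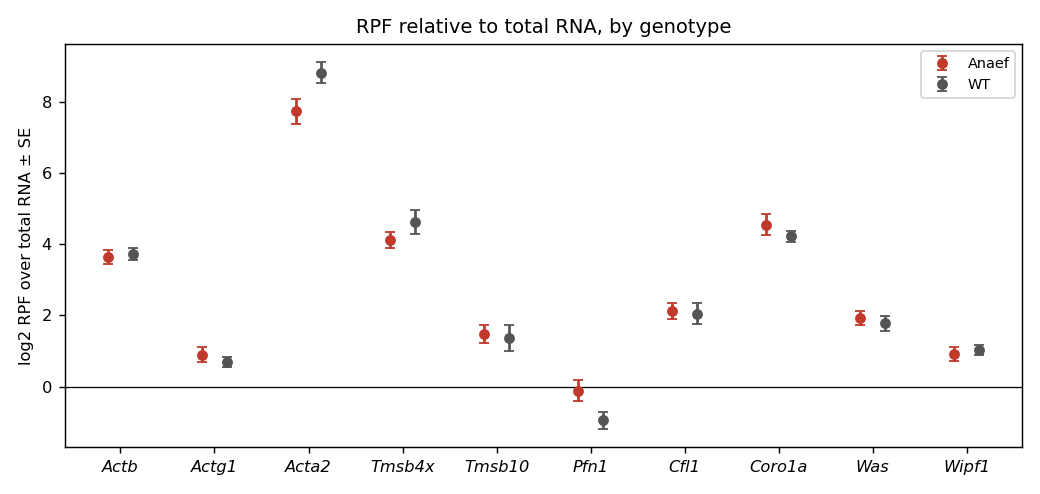
Log2 of RPF over total RNA for each gene with its SE, Anaef left of WT. Acta2 stands highest at 7.73 and 8.83, Tmsb4x, Coro1a and Actb lie between 3.65 and 4.63, and Pfn1 lies at -0.12 and -0.95.

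Both turnover factors were higher in RPF than in total RNA. Cfl1, which encodes cofilin, had 1825 and 2052 CPM in the Anaef RPF pools and 1435 and 1645 CPM in the WT RPF pools. In total RNA it had 558, 399, 319.7 and 501 CPM in Anaef cells and 299.7, 307, 601 and 306 CPM in WT cells. The RPF pools did not overlap between genotypes, and the log2 ratio was 2.12 (SE 0.23, adjusted p = 9.4e-05) in Anaef and 2.05 (SE 0.29, adjusted p = 0.00043) in WT. Of its coding windows, 68.9% occurred in other annotated genes, and with its pseudogenes' counts added the ratio was 1.84 in Anaef and 1.73 in WT.

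Coro1a encodes coronin 1A, a filament-binding protein of blood cells. It had 3326 and 4069 CPM in the Anaef RPF pools and 3251 and 3556 CPM in the WT RPF pools, which overlapped. Its total RNA held 162, 91.8, 192 and 186 CPM in Anaef cells and 171, 180.3, 169.8 and 218 CPM in WT cells, with Anaef 6 the lowest of all 8. The log2 ratio was 4.55 (SE 0.30, adjusted p = 9.1e-06) in Anaef and 4.22 (SE 0.16, adjusted p = 2.7e-06) in WT. Its sequence shared no window with another gene.

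Per kilobase, the nucleation promoters had the lowest levels of the 10 genes in RPF, and in total RNA the lowest apart from Acta2. Was, which encodes WASP, had 254 and 285 CPM in the Anaef RPF pools, against 233 and 230.1 CPM in the WT RPF pools, without overlap. Total RNA libraries held 57.2, 65.6, 82.7 and 77.5 CPM in Anaef cells and 82.1, 74.7, 50.5 and 66.5 CPM in WT cells. Wipf1, which encodes WIP, had 261 and 274 CPM in the Anaef RPF pools and 231 and 261 CPM in the WT RPF pools, which overlapped narrowly. Its total RNA held 117, 173, 142 and 135 CPM in Anaef cells and 133, 115, 124 and 119 CPM in WT cells. The log2 ratio of RPF over total RNA was 1.93 (SE 0.20) in Anaef and 1.78 (SE 0.21) in WT for Was, and 0.91 (SE 0.19) and 1.02 (SE 0.14) in Anaef and WT for Wipf1, all 4 called. The partners stood at 0.973 and 1.04 Was footprints per Wipf1 footprint in the Anaef pools and 0.880 and 1.01 in the WT pools, but at 0.379 to 0.582 in Anaef and 0.408 to 0.652 in WT total RNA.

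Levels of different genes were set against each other per kilobase, of coding sequence for RPF and of mRNA for total RNA, with 1 annotated transcript a gene. In Anaef RPF the order of the means in CPM per coding kilobase was Tmsb4x (63033), Actb (19952), Tmsb10 (10730), Cfl1 (3869), Coro1a (2668), Pfn1 (1786), Actg1 (696), Acta2 (451), Wipf1 (180.3) and Was (172). In WT RPF the means were 74477 for Tmsb4x, 20114 for Actb, 8384 for Tmsb10, 3074 for Cfl1, 2456 for Coro1a, 994 for Pfn1, 756 for Acta2, 608 for Actg1, 166 for Wipf1 and 148 for Was. Only Wipf1 and Was, in Anaef, overlapped with their neighbour in these orders. Total RNA per kilobase of mRNA ordered the genes differently, with Pfn1 at 951 and 953 in Anaef and WT, Actb at 934 and 903, Tmsb10 at 756 and 651 and Tmsb4x at 636 and 537 CPM per kilobase, each overlapping with the next. Below a gap came Actg1 at 216 and 222, Cfl1 at 189 and 161, Coro1a at 90.4 and 106, Was at 33.5 and 32.4, Wipf1 at 29.98 and 25.9 and Acta2 at 1.18 and 0.982 CPM per kilobase in Anaef and WT. The total RNA libraries overlapped between Actg1 and Cfl1 and between Was and Wipf1 in both genotypes.

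Between genotypes no member was called in either assay. In total RNA, where 0.0224% of all genes tested were called (4 of 17876, all lower in Anaef), the log2 of Anaef over WT ran from -0.23 (Coro1a) to 0.28 (Acta2), with a median of 0.13 beside 0.01 over all genes. The libraries of the 2 genotypes overlapped for all 10 genes, beside 3.63% of all genes tested that did not overlap (1.55% higher and 2.08% lower in Anaef). Cfl1, Tmsb4x and Tmsb10 had values of 0.24 (SE 0.25), 0.25 (SE 0.26) and 0.22 (SE 0.29). Without WT 3 these were 0.53, 0.55 and 0.59, with adjusted p from 0.656 to 0.687.

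In the footprints, 0% of all genes tested were called (0 of 9710, with 1151 at an unadjusted p under 0.05 and 197 called by DESeq2). Of the members, 5 (Actg1, Cfl1, Pfn1, Tmsb10 and Was) were higher in both Anaef pools than in both WT pools, and Acta2 and Tmsb4x were lower in both. Over all genes tested 44.7% did not overlap, 21.5% higher and 23.3% lower in Anaef, and with 2 pools a genotype the smallest p of an exact two-sided permutation test of 1 gene is 0.333. Pfn1 differed most among members, with a log2 of Anaef over WT of 0.86 (SE 0.21, unadjusted p = 0.0057, adjusted p = 0.344). Acta2 followed at -0.73 (SE 0.15, unadjusted p = 0.0022, adjusted p = 0.344). DESeq2 called both (adjusted p = 0.0027 for Pfn1 and 9.6e-05 for Acta2). So did edgeR with no filter on low counts (adjusted p = 1.3e-06 and 1.6e-05), a run that called 514 genes. Leaving out 1 pool sets 1 pool of a genotype against 2 of the other. The Acta2 value then ran from -0.91 to -0.59 and that of Pfn1 from 0.56 to 1.21. With all pools, the other 8 members lay between -0.23 and 0.37.

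Markers of other cells were summed per library, and 1 of them, Igha, was called between the genotypes, in total RNA. Plasma cell markers (8 genes, led by Igkc and Igha) summed to 1603 to 4745 CPM in Anaef RPF, 7977 to 15911 CPM in WT RPF, 458 to 972 CPM in Anaef total RNA and 1418 to 6328 CPM in WT total RNA. Igha, the IgA heavy chain, was lower in Anaef total RNA, at 90.5 ± 25.8 CPM in Anaef and 357 ± 72.2 CPM in WT (SD, n = 4 each, log2 -1.98, adjusted p = 0.027). B cell markers (10 genes, Pax5 and Cd22 highest in WT total RNA) summed to 15.9 to 26.9 CPM in Anaef RPF, 34.9 to 69.6 CPM in WT RPF, 20.9 to 53.6 CPM in Anaef total RNA and 48.8 to 94.7 CPM in WT total RNA. Myeloid and dendritic markers (10 genes, Itgam and Xcr1 highest in WT total RNA) summed to 13.5 to 27.4 CPM in Anaef RPF, 23.8 to 35.2 CPM in WT RPF, 17.0 to 27.9 CPM in Anaef total RNA and 33.0 to 36.9 CPM in WT total RNA. CD8 and NK markers (7 genes, Cd8b1 and Klrd1 highest in WT total RNA) overlapped between the genotypes, at 28.4 to 36.7 CPM in Anaef RPF and 33.6 to 39.4 CPM in WT RPF. In bulk libraries fewer cells of a type and less RNA per cell cannot be told apart, and the part of these cells in the Pfn1 and Acta2 values was not tested.

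**Figure D5:**
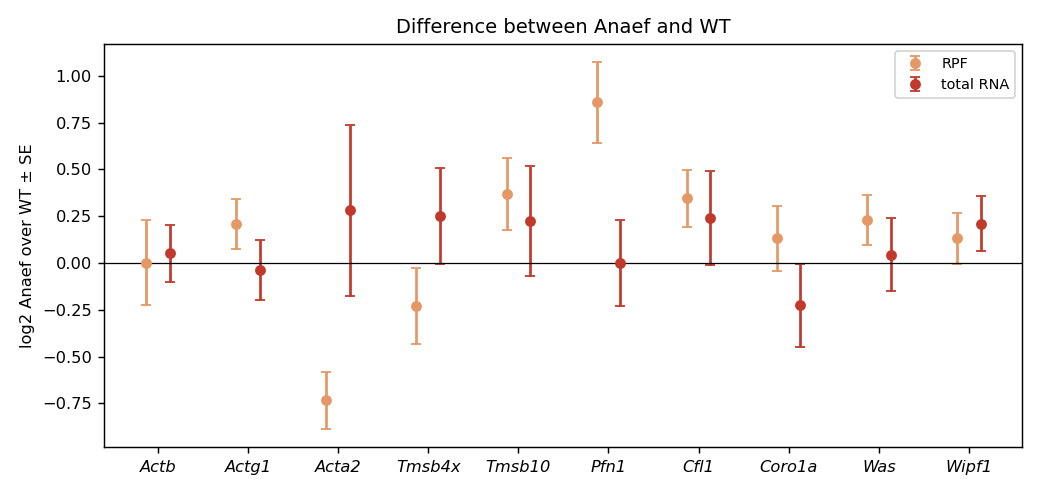
Log2 of Anaef over WT with its SE for each gene, in RPF (left of each pair) and total RNA (right). Pfn1 at 0.86 and Acta2 at -0.73 in RPF lie farthest from 0, and no value passes the adjusted threshold.

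The genotype change in RPF relative to total RNA, tested as an interaction over all 12 libraries, called 0% of all genes tested (0 of 19031, with 636 at an unadjusted p under 0.05 and 10 called by DESeq2). Acta2 had the lowest member value, -1.08 (SE 0.45, unadjusted p = 0.034). Pfn1 had the highest, 0.85 (SE 0.40, unadjusted p = 0.056). All adjusted p-values of members were 1.00. The Pfn1 ratio was thus called lower in WT and not in Anaef, while the difference between the genotypes did not pass.

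The wider actin pathway was read from 11 lists of 117 other genes. None of the 105 tested in total RNA, the 100 tested in RPF or the 110 tested for the interaction was called between genotypes. Relative to total RNA, RPF was higher for 38 and lower for 29 of 108 in Anaef, and higher for 46 and lower for 31 of 110 in WT, with medians of 0.39 and 0.43. Among nuclear protein-coding genes 21.5% were called higher and 36.4% lower in Anaef, and 26.3% higher and 39.5% lower in WT. The higher calls include Actc1 and Actbl2, which passed the filter through RPF alone. The lower calls in WT include Cfl2, Enah, Fmnl2, Coro2b and Coro6, which passed it through total RNA alone. Of these genes, Cfl2, Enah and Coro2b are among the lower calls in Anaef too. Nothing is read from the calls of these genes. The lists below hold 3 to 19 tested genes each, and nothing particular to a list is read from its counts.

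The Arp2/3 complex, which WASP activates, had genes called in both directions. In Anaef 2 of its 9 genes were higher in RPF and 5 lower, and in WT 3 were higher and 4 lower. Arpc3 reached 4.64 and 4.21 in Anaef and WT, while Actr3, the most abundant in total RNA beside Arpc5, lay at -4.93 and -5.66. Among 17 other WASP and WAVE promoters, 14 were tested, of which 4 were higher and 4 lower in each genotype. They ran in WT from Abi2 (-2.47) to Hcls1 (1.97), and their most abundant RNAs were Cyfip2 and Nckap1l, which encode WAVE complex subunits. Formins and Ena/VASP proteins, which lengthen filaments, had 2 higher and 2 lower of 11 in Anaef and 6 higher and 2 lower in WT. The genes lower in WT were Enah and Fmnl2, and Enah was also called lower in Anaef. Neither gene passed the filter in RPF, so nothing is read from their calls. Diaph1 was highest in WT (2.61), Enah had 1 RPF count in Anaef and 0 in WT, and Fmnl1 and Evl were the most abundant.

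Paralogs of the members gave values of both signs. Of the 6 other coronins, 1 was higher and 3 lower in Anaef and 1 higher and 5 lower in WT. The lower calls include Coro2b in both genotypes and Coro6 in WT. Neither passed the filter in RPF, where 4 coronins were tested, so nothing is read from their calls. Coro1b lay at 0.65 and 1.33 in Anaef and WT, Coro7, the most abundant, at -1.01 and -1.37, and Coro6 had 2 RPF counts in Anaef and 0 in WT. Cfl2, the muscle cofilin paralog, did not pass the filter in RPF, where it had 14 counts in Anaef and 25 in WT, against 3127 and 1828 counts in Anaef and WT total RNA. Dstn, the related destrin, lay at 1.56 and 1.34.

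Genes that cap, sever or recycle filaments had 9 higher and 3 lower of 19 in Anaef, and 7 higher and 4 lower in WT. The range in WT was from Gmfb (-1.51) to the severing protein Gsn (4.61), with Ssh2 and Cap1 the most abundant. Crosslinkers and membrane linkers had 5 higher and 2 lower of 11 in Anaef and 6 higher and 2 lower of 13 in WT. Tln1, talin, was highest at 3.59 and 3.09 in Anaef and WT, Flna lowest in WT at -1.25, and Msn and Lcp1 were the most abundant. Myosins and tropomyosins had 5 higher and 4 lower of 11 in each genotype, with Myh10 at 3.84 and Tpm1 at -4.88 in WT, and Myh9 and Tpm3 the most abundant. Of Srf and the coactivators that sense free actin, Srf lay at -1.57 and -1.45 and Mrtfa at 0.39 and 0.68 in Anaef and WT.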

How the data were processed

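RPF and total RNA were measured in purified lymph node CD4+ T cells, with 2 pools and 4 samples per genotype. The authors deposited 1 table of raw gene counts for all 12 libraries, not normalized, per the file headers. Reads (single-end, 50 bases for total RNA, per the labels' protocols) were processed with TopHat 1.4.1 and Bowtie 0.2.17 on GRCm38, per the submitters' processing notes. Neither the labels nor the headers name the counter, its annotation, its use of strand or its treatment of reads with several matches. Of the rows, 263 joined several IDs and 897 had no gene name in GENCODE M21.

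From the counts, edgeR 4.0.16 (R 4.3.3) gave TMM-scaled CPM and quasi-likelihood tests after filterByExpr, with Benjamini-Hochberg adjustment over all genes tested and a threshold of 0.05. Anaef was compared with WT in RPF and in total RNA, RPF with total RNA within each genotype, and the genotype change of that ratio as an interaction. The SE was derived from the F statistic, and fold changes used edgeR's default prior count. Also run were DESeq2 1.42.0, scaling by RLE, tests without the filter, tables without mitochondrial, immunoglobulin and T cell receptor genes or with nuclear protein-coding genes only, added pseudogene counts, and leaving out each library. The fits were tested on simulated data. Lengths, coordinates and sequences came from GENCODE M21, with 1 transcript per gene (coding, best annotated, then longest coding sequence). Shared windows were exact matches to a transcript of another gene, of 30 bases in coding sequence or 50 bases in mRNA.

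The members and the lists of other genes were chosen with earlier results of these data known. Named genes were all members and, for every other list, genes called between genotypes, the 2 most abundant in WT total RNA, and the highest and lowest ratio in WT. Protein sequences were not used here. The values of 1 of the 11 lists are not reported here.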

Additional observations from a re-analysis of the deposited data

Results flagged for a closer look

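One library, WT 3, stood apart from the other WT total RNA libraries for 4 members, with a gap to its neighbour that was large against the range of the group of 4. It held 3.08 CPM of Acta2, 601 CPM of Cfl1, 1043 CPM of Pfn1 and 768 CPM of Tmsb10, each the highest of the WT total RNA libraries. The next WT library held 1.69 CPM of Acta2, 307 CPM of Cfl1, 768 CPM of Pfn1 and 376 CPM of Tmsb10. Of 20 groups examined (10 members in 2 genotypes of total RNA), 4 stood out in this way, and chance flags about 1 in 20 groups. All 4 were flagged for the same library, so they are not separate trials and their number is not a test against chance. For Tmsb4x the same library was also the highest of its group, at 661 CPM. WT 3 had the lowest total count, 15326842, and the highest mitochondrial share, 27.8%, and the part of depth or RNA quality in these values was not tested. In Anaef total RNA, libraries 5 and 8 were the highest for Cfl1, Pfn1, Tmsb4x and Tmsb10, with 19.6 and 23.7% mitochondrial counts. The RPF pools, of 2 per genotype, were too few for this check.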

How the results depend on the processing

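The count of genes called between Anaef and WT in total RNA, 4, was 120 with DESeq2, 0 without mitochondrial, immunoglobulin and T cell receptor genes, 0 with nuclear protein-coding genes only, and 0 to 3 with 1 library left out. In RPF the count of 0 became 197 with DESeq2, 514 with no filter, 6 without those gene classes, 6 with nuclear protein-coding genes only and 0 to 211 with 1 pool left out (211 without Anaef 3B, 14 without Anaef 4B). For the interaction it became 10 with DESeq2, whose scaling moved the median of all genes to 0.32 (log2), and 0 to 1 with 1 library left out. RPF over total RNA called 12106 genes in Anaef (6808 with coding genes only, where fewer genes were tested, and 8624 to 12027 with 1 library left out) and 13157 in WT (7861, and 10381 to 14186). The tables restricted to coding genes and those with pseudogene counts added were chosen after seeing the data.

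The members' ratios of RPF over total RNA kept their sign and call in each alternative run, apart from those of Actg1 (-0.48 in Anaef and -0.71 in WT with pseudogene counts added), Acta2 (-0.30 in Anaef with those counts), Pfn1 (-0.29 to 0.022 in Anaef and -1.30 to -0.66 in WT with 1 library left out) and Tmsb10 (1.10 in WT without pool 1B). The counts added to Acta2 came from pseudogenes that share 0.35% of its 50-base mRNA windows. Genotype differences changed sign only for values near 0 or small against their SE. In total RNA these were Pfn1 (-0.0048 without mitochondrial and receptor genes, -0.013 with coding genes only, and -0.16 to 0.15 with 1 library left out), Acta2 (-0.057 with pseudogene counts, and -0.049 to 0.54), Was (-0.084 to 0.15), Actb (-0.052 to 0.13) and Actg1 (-0.11 to 0.092). In RPF they were Actb (-0.018 with no filter, -0.011 without those gene classes, -0.0098 with coding genes only, and -0.17 to 0.18 with 1 pool left out) and Coro1a (-0.039 to 0.28). For the interaction they were Actb (-0.25 to 0.11), Cfl1 (-0.23 to 0.23) and Tmsb10 (-0.26 to 0.37), all with 1 library left out. The RPF differences of Pfn1 and Acta2 passed the threshold under DESeq2 and with no filter, whereas their largest adjusted p over all alternatives was 0.826. With 1 pool left out, they ran from 0.56 to 1.21 for Pfn1 and from -0.91 to -0.59 for Acta2. The cause of these changes was not tested. No paired analysis was possible because the groups share no replicate numbers and the labels do not say which samples went into which pool.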
